A study of Solanum lycopersicum with 24 samples.

Results

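The response to heat stress (HS) was examined in rs2z35 36, a tomato double mutant with frameshift mutations in both genes of a pair of splicing factors. The genes described are those for which at least 10 reads in all were counted across the 6 RNA-seq libraries of this mutant, 3 from control leaves and 3 from HS leaves, which were 22570 of the 34075 genes listed. Of the remaining genes, 7860 had no read in the 6 libraries and 3645 had between 1 and 9 reads in all. The whole study holds 24 libraries, 3 per condition for WT, rs2z35, rs2z36 and rs2z35 36, and 24583 genes reach the same read sum over all of them. Leaves were excised from 6-week-old plants of Solanum lycopersicum cv. Moneymaker and kept for 1 h at 40 °C (HS) or for 1 h at 25 °C (control). WT carries neither mutation and each single mutant carries 1 of them. The alleles were made with CRISPR-Cas9 as insertions or deletions of 1 nucleotide that lead to a premature stop codon, and rs2z35 36 came from a cross of homozygous, T-DNA-free single mutants. Such an allele is still transcribed, so reads of both genes were counted in the mutant as well and do not show whether protein is made. The files hold RNA from whole leaves, in which a change in the share of a cell type and a change in RNA per cell cannot be told apart.

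Serine/arginine-rich (SR) proteins bind pre-mRNA and guide the choice of splice sites. RS2Z35 and RS2Z36 belong to the RS2Z clade of plants, whose members combine an RNA recognition motif with zinc knuckles and an arginine/serine-rich region. In heated plant cells, HS transcription factors (HSFs) bind the promoters of heat shock protein (HSP) genes, and the HSPs keep unfolding proteins soluble and refold them. HSFA2 is an HSF that is itself strongly HS-induced and is known for its part in acquired thermotolerance in tomato.

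Total counts of the rs2z35 36 libraries ranged from 18995695 to 20821643 in control and from 16853134 to 17529715 in HS, which includes the lowest total of the 24 libraries. The 10 genes with the most reads took 5.06% ± 0.283 of the reads of a control library and 12.6% ± 0.358 of those of an HS library (SD, n = 3). Levels are therefore given as CPM, the count relative to library size, scaled by TMM, which corrects for such a shift, and the 3 CPM values of a condition stand in the order of replicates 1 to 3. Every replicate pair differed by more than sampling noise (chi-square per degree of freedom 7.82 to 19.0), so that none was treated as a repeat of another. Over 9817 genes with at least 10 CPM in both conditions, the median SD of log2 CPM between replicates was 0.10 in control and 0.13 in HS. The authors adjusted HS counts, and by what is stated not control counts, for a batch effect with ComBat-Seq, and the effect of this step on the spread among HS replicates was not tested. Reads were not strand-specific, so overlapping and antisense genes cannot be told apart, and near-identical copies could share reads.

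HS changed the transcript level of 25.1% of the tested genes in rs2z35 36. The quasi-likelihood test of edgeR, with p-values adjusted after Benjamini and Hochberg, gave 2954 genes higher in HS (13.1%) and 2716 lower (12%). Such genes, termed called below, passed a log2-transformed fold change (log2FC) of 1 in either direction together with an adjusted p of less than 0.01. The median log2FC was 1.96 among genes called higher and -1.68 among genes called lower. Large increases were more frequent than large decreases: 851 genes rose by a log2FC above 3 and 353 fell below -3, while 359 rose above 5 and 42 fell below -5. These counts include genes with no read in a condition, whose fitted value depends on the prior count. In 31.2% of all tested genes every HS library was above every control library, and in 33.7% every HS library was below, so that such separation alone is common here. Only 7 genes called higher and 7 called lower overlapped between the conditions. The split depends on scaling: with total counts as library size the median of all tested genes moved from -0.03 to -0.76, and 1588 genes were called higher against 7519 lower, that is 17.4% of the called genes higher instead of 52.1%. All log2FC values below are relative to the TMM scale.

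**Figure D1:**
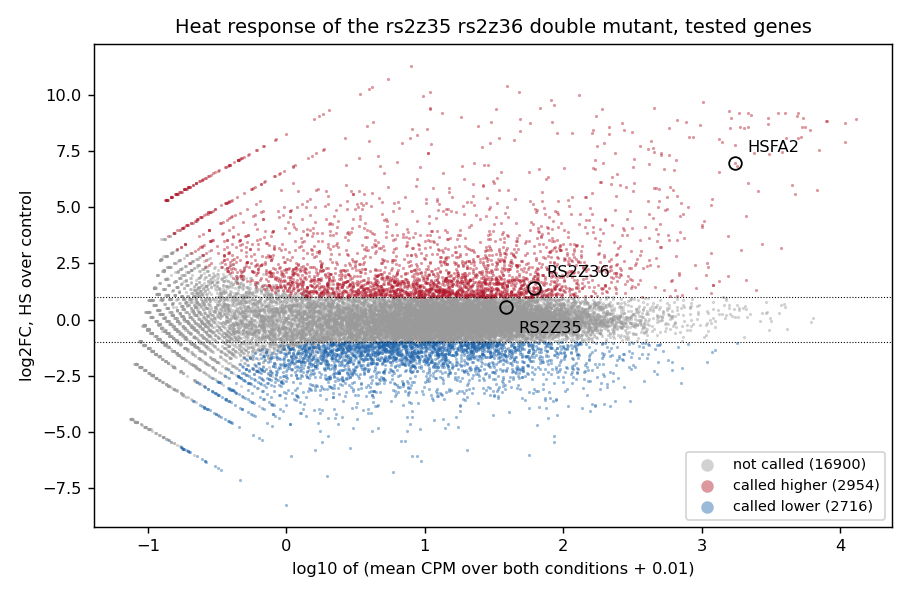
Mean level over both conditions (log10 of CPM + 0.01, horizontal axis) and log2FC of HS over control (vertical axis) of each of the 22570 genes tested in rs2z35 36, with genes called higher in red and lower in blue, RS2Z35, RS2Z36 and HSFA2 circled, and dotted lines at the log2FC threshold of 1 in either direction. The genes called higher reach larger values than the genes called lower, with 851 above 3 and 353 below -3.

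Both mutated genes were read in rs2z35 36 under both conditions. RS2Z35 (Solyc05g054920) was at 32.3, 30.7 and 30.8 CPM in control and at 49.5, 42.7 and 43.2 CPM in HS, and RS2Z36 (Solyc09g005980) at 33.7, 33.9 and 34.8 CPM in control and at 93.8, 87.1 and 84.7 CPM in HS. For both genes every HS library was above every control library. RS2Z35 had a log2FC of 0.54 (SE 0.095, adjusted p = 4.76e-04), below the threshold of 1, and -0.18 with total counts as library size. RS2Z36 rose by a log2FC of 1.39 (SE 0.088, adjusted p = 1.44e-07), but with total counts as library size its value was 0.66 and it was not called. In WT, RS2Z35 stood at 192, 183 and 204 CPM in control and at 234, 217 and 254 CPM in HS, well above all 6 mutant libraries. The log2 difference of rs2z35 36 from WT was -2.63 in control and -2.38 in HS for RS2Z35, and -0.75 (adjusted p = 8.31e-05) and -0.38 (adjusted p = 0.0393) for RS2Z36. WT levels of RS2Z36 were 53.2, 55.5 and 64 CPM in control and 116, 104 and 126 CPM in HS. In both conditions all rs2z35 36 libraries were below all WT libraries for both genes, several-fold for RS2Z35 and by a smaller gap for RS2Z36.

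HSFA2 (Solyc08g062960) was at 28.8, 25.5 and 29.5 CPM in control and at 4020.2, 3462 and 2888 CPM in HS. All HS libraries lay far above all control libraries, replicate 3 being the lowest of them. The log2FC was 6.97 (SE 0.177, adjusted p = 7.09e-11), and in WT it was 7.35. The difference between the responses of both genotypes, tested as an interaction over all 24 libraries, was -0.39 (SE 0.252, adjusted p = 0.706), which does not show that the responses are equal. For RS2Z35 and RS2Z36 the same difference was 0.25 (adjusted p = 0.587) and 0.37 (adjusted p = 0.405).

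**Figure D2:**
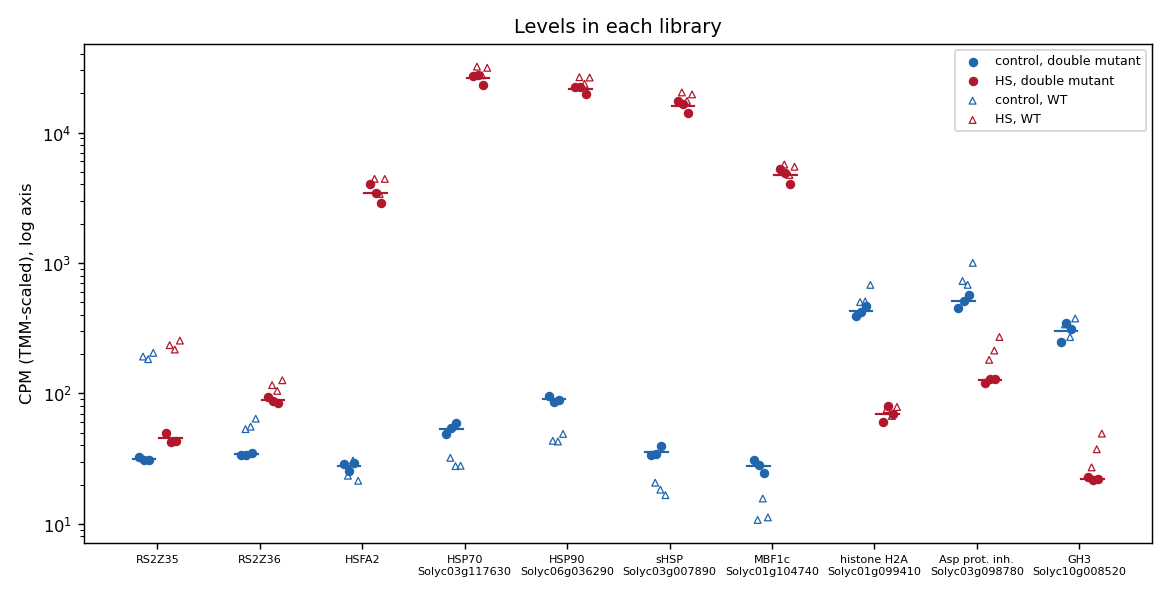
Level of named genes (TMM-scaled CPM on a log axis) in each of the 3 control (blue) and 3 HS (red) libraries of rs2z35 36 (filled points, with the mean as a line) and of WT (open triangles). In rs2z35 36, HSFA2 and the heat shock genes separate by orders of magnitude, the RS2Z genes by less than 3-fold, and the histone, GH3 and protease inhibitor genes are lower in HS.

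For a description by function, genes were grouped by words in their annotated descriptions, which were at hand for 2378 of the tested genes (10.5%). These described genes are richer in changed genes than the rest, 30.2% of them being called higher and 23.8% called lower, and the counts of each list are to be read against these shares. Of the 2378 described genes, 1633 are numbered on chromosomes 1 and 2, so genes of the other chromosomes are under-represented in the lists. The lists hold only described members, not whole families. Descriptions came from tables that the study titles as lists of differentially expressed genes, of HS in WT and of mutants against WT. A gene may thus be described because it differs from WT in these libraries, and a list's difference from WT can repeat that choice. Of 234 genes in 22 lists, 233 were tested, 100 were called higher and 57 called lower; the remaining one, described as WRKY transcription factor 47, had a read sum under 10. The lists and their members were chosen with earlier results of these data known, so that the counts are descriptions.

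Of the lists, chaperone genes gave the largest increases. All 17 small HSPs, which hold unfolding proteins, were called higher, with a median log2FC of 8.94 and a range of 7.45 to 9.95, and so were all 9 HSP70 genes, ATP-driven folding chaperones, with a median of 8.44 and a range of 1.94 to 8.97. The only described HSP90 gene rose as well. Together these 27 genes held 0.186%, 0.171% and 0.178% of all counts in the control libraries and 16.8%, 16.4% and 16.2% in the HS libraries. The groups are far apart, and the HS replicates differ by less than a percentage point. The mean shares were 0.178% ± 0.00785 in control and 16.4% ± 0.298 in HS (SD, n = 3), against 0.138% and 18.5% in WT.

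The transcript with the highest level in HS encodes an HSP70 (Solyc03g117630). It stood at 48.5, 53.8 and 58.9 CPM in control and at 27351, 27408 and 23179.6 CPM in HS, a log2FC of 8.93 (SE 0.196, adjusted p = 2.38e-11). The HSP90 gene Solyc06g036290, whose product matures signalling proteins, went from 95, 86.5 and 88.8 CPM to 22465, 22414 and 19786 CPM (log2FC 7.92, SE 0.172). The class 2 small HSP Solyc03g007890, annotated as Le-HSP17.6, rose from 33.7, 34.2 and 39.5 CPM to 17478, 16481 and 14157 CPM (log2FC 8.82, SE 0.190). In all of these, HS replicate 3 was the lowest HS library and still far above every control library. The remaining transcripts among the 5 highest in HS were a heat shock protein gene with no class in its description (Solyc03g115230, log2FC 8.73) and a further HSP70 (Solyc11g066100, log2FC 8.83). The small HSPs covered several compartments: the mitochondrial small HSP Solyc08g078700 had a log2FC of 8.57, the chloroplastic Solyc03g082420 8.94 and the peroxisomal 15.7 kDa protein Solyc04g014480 8.13. Solyc06g076540, a class I gene, had the largest log2FC of the list, 9.95, but from 0.0398, 0 and 0 CPM in control to 18.1, 24.4 and 15.2 CPM in HS. It lies beside other class I genes with similar descriptions (Solyc06g076520, Solyc06g076560, Solyc06g076570), so that the division of reads between them is uncertain. The smallest increase of an HSP70 was that of Solyc01g103450, which was already at 714, 592 and 631 CPM in control and reached 2661, 2494 and 2223 CPM in HS (log2FC 1.94).

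The co-chaperones of HSP70, DnaJ and BAG proteins, changed less uniformly: 10 of 17 were called higher, 1 lower and 6 neither, with a median log2FC of 1.27. All described BAG genes were among the strongest, with 9.19 for the BAG6-like Solyc01g095320, 8.55 for Solyc10g084170 and 8.07 for the mitochondrial BAG5 Solyc06g072430. The DnaJ gene Solyc11g071830 rose from 37.7, 36.9 and 40.2 CPM to 11535, 10661 and 8977 CPM (log2FC 8.10, SE 0.178). In contrast, the DnaJ gene Solyc02g014860 was at 119.8, 129.5 and 91.7 CPM in control and at 14.7, 10.7 and 12 CPM in HS, without overlap (log2FC -3.17, SE 0.157, adjusted p = 1.86e-08). Of 5 genes selected as chaperonins, 2 were called higher, the 10 kDa chaperonin Solyc01g088610 (log2FC 1.35) and T-complex protein 11 (Solyc01g103990, log2FC 1.48), whose family is not a chaperonin subunit in spite of its name. Neither was called with total counts as library size (0.62 and 0.75). The list of HSP100 and Clp proteins held no described HSP101. Its 2 genes called lower, Solyc11g006650 (log2FC -1.44) and Solyc01g007260 (log2FC -1.17), are double Clp-N motif proteins, and the Clp protease subunit Solyc01g102990 had 0.58, below the threshold.

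Among the transcription regulators of the lists, 1 HSF gene and the co-activator MBF1c had the largest log2FC, and the 3 described HSF genes did not all rise. MBF1c (Solyc01g104740), a transcriptional co-activator known for its role in thermotolerance, was at 30.9, 28 and 24.5 CPM in control and at 5254, 4887 and 4050.2 CPM in HS (log2FC 7.42, SE 0.181, adjusted p = 5.01e-11). The HSF Solyc09g065660 went from 3.55, 3.81 and 2.73 CPM to 694, 763 and 676 CPM (log2FC 7.74, SE 0.161) and the HSF Solyc02g072000 from 8.01, 7.58 and 9.57 CPM to 230.2, 232 and 188 CPM (log2FC 4.71, SE 0.138). The ERF genes Solyc01g090310 (log2FC 5.20) and Solyc02g090770 (5.08) lay between these HSF genes. MBF1c and both HSF genes were separated between conditions by more than an order of magnitude. The third described HSF, Solyc02g079180, was lower in HS, with 5.90, 5.05 and 2.69 CPM against 2.06, 2.05 and 1.68 CPM (log2FC -1.22, adjusted p = 4.20e-03). Its call was kept only when control replicate 3 was the library left out: without each of the others the log2FC was between -1.26 and -0.99 and the adjusted p at most 0.0240.

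Ethylene response factor (ERF) genes were mostly higher and WRKY genes, regulators of defence and wound responses, more often lower. Of 11 ERF genes, 8 were called higher and none lower, with a median log2FC of 3.16. ERF gene Solyc02g090770 rose from 1.35, 1.09 and 1.47 CPM to 52.9, 39.4 and 39.4 CPM (log2FC 5.08, SE 0.174). ERF5 (Solyc03g093550) rose from 5.02, 2.15 and 4.20 CPM to 21.7, 38.3 and 30.1 CPM (log2FC 3.00, SE 0.276). Neither gene overlapped between conditions, although the replicates of ERF5 were scattered. Of 9 tested WRKY genes 1 was called higher and 4 lower, with a median of -0.93. WRKY41 (Solyc01g095630) fell from 51.0, 63.8 and 58.8 CPM to 9.08, 12.5 and 15.4 CPM (log2FC -2.21), and WRKY55 (Solyc04g072070) was the exception, rising from 2.39, 1.89 and 2.32 CPM to 12.2, 14.4 and 12 CPM (log2FC 2.56).

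Of 6 described SR and splicing factor genes, 3 were called higher in the double mutant and none lower. The largest increase was that of Solyc01g105140, annotated as an arginine/serine-rich splicing factor, from 58.3, 61.7 and 55.2 CPM to 470.1, 400.2 and 422 CPM (log2FC 2.90, SE 0.108, adjusted p = 1.61e-09). SR34 (Solyc01g099810) was called with a log2FC of 1.90, from 11.1, 6.71 and 5.54 CPM to 36.3, 23.6 and 26.5 CPM, and RS2Z36, as given above, with 1.39. All HS libraries of these genes were above all control libraries. RS31 (Solyc01g096180) had 0.91 and the spliceosome subunit SF3B2 (Solyc03g006520) 0.03, with RS2Z35 between them at 0.54. Exon use and isoforms were not measured, since the files hold a single count per gene.

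**Figure D3:**
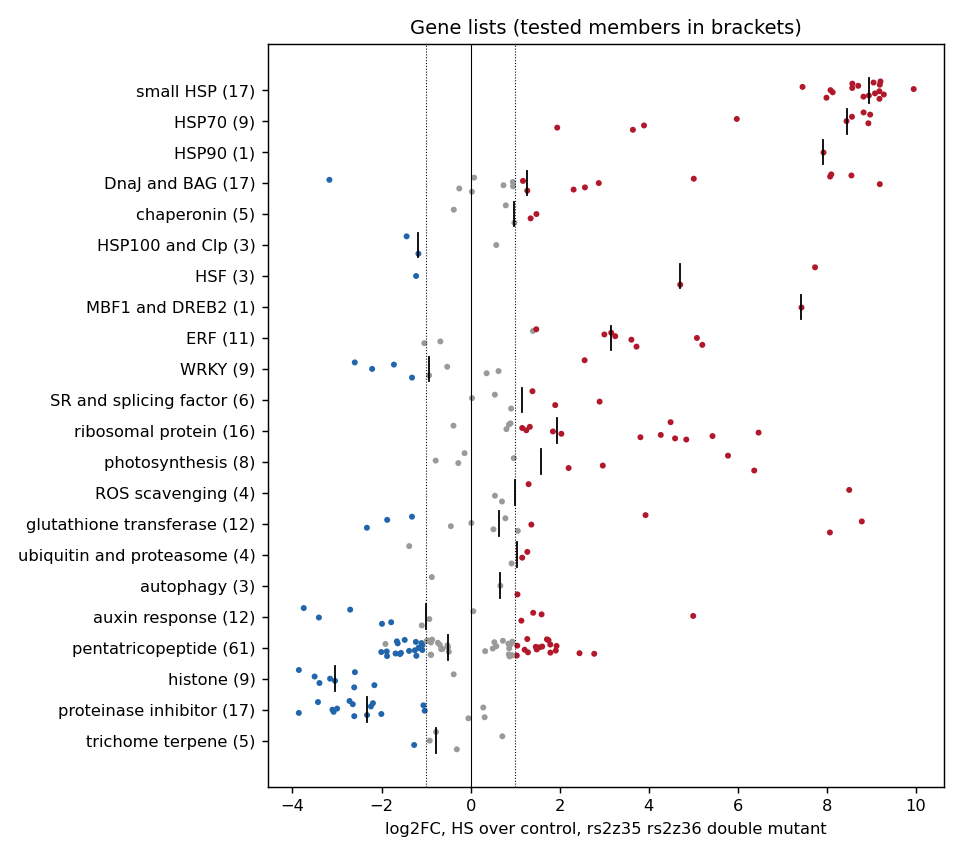
log2FC of HS over control in rs2z35 36 for every tested member of each list (points, red where called higher, blue where called lower and grey otherwise), with the list median as a bar and dotted lines at the threshold of 1 in either direction. The small HSP, HSP70 and HSP90 lists have the highest medians, 8.94, 8.44 and 7.92, followed by MBF1c at 7.42. Members of HSP70 reach down to 1.94, and single members of other lists lie in the same range as the highest. The histone and proteinase inhibitor lists have the lowest medians, -3.05 and -2.33.

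Genes of photosynthesis and the ribosome gave mixed counts, which partly rest on genes not placed on a chromosome. Rubisco activase (Solyc09g011080), which keeps the carbon-fixing enzyme Rubisco active, was at 29.8, 16.7 and 20.4 CPM in control and at 1139, 1105 and 1391 CPM in HS (log2FC 5.78, SE 0.225, adjusted p = 2.26e-09). It was 1 of 4 genes called higher among 8 of the photosynthesis list, and the other 3 were at most 3.51 CPM in any library. The abundant chlorophyll a-b binding protein genes, which mark leaf mesophyll, were not called and moved in different directions. Solyc02g070940 stood at 2866, 2245 and 2578 CPM in control and at 1231, 1855 and 1327 CPM in HS (log2FC -0.79, adjusted p = 1.89e-03), without overlap. Solyc02g070970 stood at 1128, 846 and 1062 CPM in control and at 2571, 2324 and 994 CPM in HS (log2FC 0.97, adjusted p = 0.0112), with overlap, and Solyc01g105050 had a log2FC of -0.28. The summed level of the list was 3707 to 4836 CPM in control and 4188 to 6010.3 CPM in HS, which overlaps, and as a share of counts it was 0.548% and 0.404%. Of 16 ribosomal protein genes, 12 were called higher and none lower, with a median of 1.94. However, 8 of these 12 carry numbers that begin with Solyc00g, that is, they are not placed on a chromosome, and the 8 placed genes had a median of 1.03 with 4 called higher. With total counts as library size, the placed gene L19 (Solyc01g008340), at 7.29, 8.37 and 7.05 CPM in control and 16.8, 19.2 and 17.5 CPM in HS, went from 1.25 to 0.52 and lost its call.

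Of the antioxidant enzymes, an ascorbate peroxidase rose most. Solyc09g007270 went from 3.47, 2.34 and 3.87 CPM to 1149, 944 and 1375 CPM (log2FC 8.50, SE 0.236, adjusted p = 1.38e-10). Among 4 genes of this list the superoxide dismutase Solyc11g066390 was also called (log2FC 1.30, adjusted p = 6.02e-03), but its HS libraries scattered, at 50, 145 and 89.2 CPM against 49.4, 24.4 and 42.6 CPM in control. Leaving out control replicate 2 or 3, or HS replicate 2 or 3, gave values between 0.86 and 1.38 with adjusted p between 0.015 and 0.0376. The call of Solyc11g066390 was also lost in DESeq2 (adjusted p = 0.0203), with all 24 libraries (0.0126), with the replicate number as a block (0.0131) and with total counts as library size (log2FC 0.57, adjusted p = 0.121). The glutathione S-transferases, which conjugate glutathione to reactive compounds, moved both ways, with 4 of 12 called higher and 3 lower. The transferase Solyc07g056510 rose from 5.10, 2.68 and 2.77 CPM to 1588, 1566 and 1453 CPM (log2FC 8.78), whereas Solyc02g068900 fell from 20.4, 16.6 and 16.4 CPM to 2.75, 2.91 and 4.75 CPM (log2FC -2.33). The list median of 0.65 was -0.08 with total counts as library size. Of 4 proteasome genes 2 were called higher, and of 3 autophagy genes 1, ATG18h (Solyc01g098430, log2FC 1.05), none of which was called on that scale, where the autophagy median of 0.67 became -0.06.

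Of the lists, histones had the largest share of genes called lower. Of 9 histone genes, which encode the core proteins of chromatin and are mostly transcribed when DNA replicates, 8 were called lower, with a median log2FC of -3.05, and the ninth, an H3 gene, was also below control in every library without being called. Histone H2A (Solyc01g099410) was at 394, 421 and 471 CPM in control and at 60.7, 80.1 and 69.1 CPM in HS (log2FC -2.60, SE 0.130, adjusted p = 2.10e-08). An H3 gene (Solyc01g086820) fell from 84.2, 93.8 and 97.7 CPM to 5.19, 9.29 and 9.51 CPM (log2FC -3.50, SE 0.184). No HS library of either gene came near a control library. Several of the H3 genes have the same description and could share reads. These transcripts were counted after poly(A) selection.

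Proteinase inhibitors, proteins that tomato leaves make on wounding, were also lower. Of 17 such genes, 14 were called lower and none higher, with a median of -2.33. The aspartic protease inhibitor Solyc03g098780 fell from 449, 514 and 570.3 CPM to 120.1, 128 and 129 CPM (log2FC -2.00, SE 0.116) and the inhibitor 1 gene Solyc09g084490 from 521, 501 and 498 CPM to 90.1, 131 and 107 CPM (log2FC -2.19, SE 0.138). The list summed to 3061 to 3538 CPM in control and 620.9 to 826.9 CPM in HS without overlap. Both conditions used excised leaves, and the control level in WT was 5513 to 8184 CPM. Members may be listed because they differ from WT, so this gap can repeat that choice. A type-2 inhibitor (Solyc03g020040) stayed near its control level, with 32.1, 43.3 and 41.5 CPM against 50, 45.3 and 48.8 CPM (log2FC 0.32).

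The auxin genes were divided, with 4 of 12 called higher and 5 lower. GH3 enzymes conjugate auxin and other acids to amino acids, and the GH3 gene Solyc10g008520 fell from 248, 346 and 310.2 CPM to 22.9, 21.6 and 22.2 CPM (log2FC -3.75, SE 0.138, adjusted p = 1.46e-09). Another GH3 gene, Solyc01g095580, rose from 24.4, 28.4 and 29.4 CPM to 61.7, 57.4 and 60.2 CPM (log2FC 1.14), though not with total counts as library size (0.41). Pentatricopeptide repeat proteins, which process RNA in plastids and mitochondria, gave 17 called higher and 18 lower of 61, with values between -2.01 and 2.78. Of 5 terpene synthesis genes, which mark glandular trichomes, 1 was called lower, the phellandrene synthase Solyc08g005670 (3.47, 5.24 and 4.77 CPM against 2.98, 0.945 and 1.61 CPM). That call was lost without control replicate 2 or 3 or HS replicate 2 or 3 (log2FC -1.22 to -0.96, adjusted p 0.0177 to 0.0310). The summed terpene list stood at 124.9 to 172 CPM in control and 99.3 to 135 CPM in HS, which overlaps.

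The largest increases by log2FC came from genes that were nearly silent in control, often with no description at hand. The largest log2FC of a described gene was 10.26. Solyc09g064760 went from 0.0797, 0.0754 and 0 CPM to 82, 72.2 and 79.7 CPM (log2FC 10.38, SE 0.237) and Solyc11g044875 from 0.119, 0.0377 and 0.0815 CPM to 85.2, 103 and 95.8 CPM (log2FC 10.13, SE 0.211). Solyc09g073015 had 1 read in the 3 control libraries and 21.5, 24.3 and 19.0 CPM in HS, a ratio with a 95% counting interval of 296 to 65042. The other 3 genes had no control read and are given as bounds, set against 3 counts over the control group (0.0394 CPM). Solyc06g066360 was at 15.3, 15.0 and 17.3 CPM in HS, at least 404-fold higher, Solyc10g018550 at 13.4, 11 and 7.97 CPM, at least 274-fold higher, and Solyc06g072420 at 9.77, 7.16 and 7.83 CPM, at least 209.6-fold higher. In all, 95 tested genes had 0 counts in every control library, of which 90 were called, and 101 had 0 counts in every HS library, of which 23 were called. Genes of either group met the read sum of 10 through the other condition alone. A single read weighs more on the TMM scale in HS libraries than in control libraries, so 0 counts are weaker evidence of a change in HS. The shares called in these groups therefore cannot be compared as an effect of heat. Intervals and bounds cover counting error only.

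Among the largest decreases, Solyc01g080570, annotated as a nucleoside hydrolase, fell from 15.4, 11.6 and 7.86 CPM to 0, 0 and 0.280 CPM (log2FC -6.76, SE 0.540). The methionine sulfoxide reductase MsrA gene Solyc02g063250, whose enzyme repairs oxidized methionine, fell from 11.8, 20.2 and 15.4 CPM to 0.305, 0 and 0.350 CPM (log2FC -6.08, SE 0.405). Solyc03g006550, with no description at hand, fell from a higher level, 83.6, 166 and 85.2 CPM, to 1.37, 2.20 and 1.47 CPM (log2FC -6.04, SE 0.334). The control replicates of these genes scattered up to 2-fold, but no library of one condition reached the other. Solyc12g056480 (log2FC -6.31) and the receptor-like kinase gene Solyc08g016270 (log2FC -6.06) completed the 5 largest. Of the genes with 0 counts in HS, the bHLH transcription factor gene Solyc10g008260 was at 1.79, 2.19 and 1.87 CPM in control, at least 26.1-fold higher than 3 counts over the HS group (0.0748 CPM). Solyc02g064760, annotated as an RsbQ-type regulator, was at least 12.1-fold lower in HS, and Solyc12g049030 at least 8.77-fold lower, the latter resting on 1.27, 0.490 and 0.204 CPM in control and called in 2 of 6 fits that each left out a library (adjusted p up to 0.0266).

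The most abundant transcripts that fell did so by less. Solyc05g010420 was at 2618, 2395 and 2323 CPM in control and 1139, 1397 and 970.3 CPM in HS (log2FC -1.05), and it was not called without control replicate 1 (-0.99) or HS replicate 3 (-0.92). Pistil extensin like protein (Solyc01g006400), a cell wall protein by its description, fell from 1718, 1745 and 1765 CPM to 567, 739 and 567 CPM (log2FC -1.47, SE 0.130). Solyc07g041720 fell most of this group, from 978, 1370.1 and 1352 CPM to 141, 221 and 148 CPM (log2FC -2.84, SE 0.197). All 3 genes were separated between conditions, and Solyc07g064600 (log2FC -1.34) and Solyc03g005770 (log2FC -1.88) lay between them.

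To ask where the double mutant responds otherwise than WT, its heat response was set beside that of the other genotypes and the difference was tested. In WT, 5689 of 22692 genes were called (25.1%), in rs2z35 22.8% and in rs2z36 22.7%. Over 22259 genes tested in both, 2472 were called higher in rs2z35 36 and in WT, which is 83.7% of those of the double mutant and 80.9% of those of WT. Called lower in both were 2087 genes, 76.8% and 79.2%, and no gene was called in opposite directions. The log2FC values of both genotypes, which share no library, correlated across genes with r = 0.92; genes are not independent replicates and no test is attached. Called the same way in all 4 genotypes were 3709 genes. Another 505 were called in the double mutant and in none of the others, but 301 of these had an absolute log2FC under 1.5, close to the threshold, and only 2 were called when the difference from WT itself was tested.

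The size of the response was compared on genes chosen without rs2z35 36 and WT libraries, namely those called the same way in both single mutants. Each single mutant shares a mutation with rs2z35 36 and none with WT, so this choice may favour rs2z35 36. The 2241 genes called higher there had a median log2FC of 2.15 in rs2z35 36 and 2.14 in WT, and 94.8% and 94.1% of those tested were called higher. The 1985 genes called lower there had a median of -1.78 in rs2z35 36 and -1.68 in WT, with 93.2% and 88.6% called lower. No test was run on these medians. With a mean of at least 10 CPM in the higher condition, the medians were 2.07 in both genotypes for 1460 genes and -1.71 and -1.63 for 1127 genes.

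The tested difference in heat response between rs2z35 36 and WT was called for 10 of 24583 genes (0.0407%), 2 with a higher and 8 with a lower log2FC in the double mutant, by edgeR's quasi-likelihood test of the interaction over 24 libraries. At an unadjusted p below 0.05 there were 2103 genes and at an adjusted p below 0.05 there were 27. The count depends on single libraries: leaving out WT control replicate 2 gave 1 gene, as did leaving out WT HS replicate 3, and the count was between 3 and 7 without each of the other 10 libraries in turn, whereas DESeq2 called 32, all 10 among them. With the replicate number as a block, none of the 10 was called and the smallest adjusted p was 0.0185. Heat shock proteins made up 6 of the 10 genes, and all 6 had a smaller log2FC in the double mutant. Their difference from WT was between 0.84 and 1.18 in control (adjusted p at most 0.00283), where the double mutant was higher, and between -0.56 and -0.08 in HS (adjusted p at least 0.109).

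The HSP90 gene Solyc06g036290, at 95, 86.5 and 88.8 CPM in rs2z35 36 control leaves, was at 43.3, 42.7 and 48.9 CPM in those of WT, without overlap. In WT HS it was at 26557, 23604 and 26403 CPM, against 22465, 22414 and 19786 CPM in the double mutant. The difference in log2FC was -1.25 (SE 0.169, adjusted p = 2.22e-03), made up of 1.00 in control and -0.24 in HS. For the class II small HSP Solyc08g062340 the control levels were 15.2, 13.7 and 14.5 CPM in rs2z35 36 and 6.35, 6.21 and 6.57 CPM in WT, while the HS levels overlapped (6409, 5936 and 5537 against 6590.3, 5796 and 6506 CPM). Its difference was -1.26 (SE 0.167), and that of the HSC70 gene Solyc04g011440 was -1.14 (SE 0.165). The calls of the first 2 genes were kept in 10 of 12 fits that left out a library and that of Solyc04g011440 in 2, with adjusted p up to 0.0215. Over the list of small HSPs, 16 of 17 genes had a smaller log2FC than in WT, with a median difference of -1.09, made up of medians of 0.95 in control and -0.13 in HS. Members may have a description, and so be listed, because they differ from WT in these libraries. The list is therefore no independent evidence of a difference from WT.

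Among strongly induced genes, the lowest control levels, as a share of the HS level, were lower in WT than in the mutants. Any reads of these genes in control give such a share, so it does not show an HS profile in control leaves. Nor is it independent of the control levels given above. The induced genes of a genotype were those that reached 500 CPM in HS and exceeded control by 64-fold or more. They were divided into lists, and the share rests on the median ratios of the 10 lowest genes of each list. With 78 induced genes in WT and 64 in rs2z35 36, the lowest were picked from unequal numbers, and the effect of this was not tested. The share came to 0.0862% to 0.104% of the HS level in WT control and to 0.175% to 0.213% in rs2z35 36 control. In rs2z35 it was 0.199% to 0.257% and in rs2z36 0.194% to 0.311%, so that the range of the double mutant overlapped those of both single mutants and not that of WT. After this share was subtracted from the control counts, 4 of the 10 genes were called and no others. Of the 6 heat shock protein genes only Solyc09g075950 was among them, and the other 5 had adjusted p between 0.0185 and 0.311. The fitted difference of Solyc06g036290 went from -1.25 to -1.57 and that of Solyc08g062340 from -1.26 to -3.88. That of Solyc04g011440 went from -1.14 to -1.51 and that of Solyc09g075950 from -1.69 to -9.48, and all 6 were larger in size. Negative results of the subtraction were replaced by no count at all. Where few or no control counts are left, the fitted value depends on the prior count, so these sizes are not read further. All 6 genes belong to the induced genes (78 in WT and 64 in rs2z35 36), among which those with the lowest ratios set the share. The subtraction is thus no independent test of these differences. The source of the share, and its part in the differences, were not tested.

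The 4 genes that are not heat shock proteins differed in other ways. Solyc07g064560, encoding a protein with an AT hook, a DNA-binding motif, was at 41.9, 31.2 and 31.5 CPM in control and 20.4, 22.9 and 31.2 CPM in HS in the double mutant, but at 9.99, 9.53 and 7.18 CPM and 28.8, 28 and 22.1 CPM in WT. Its difference of -2.05 (SE 0.260, adjusted p = 2.22e-03) was made up of 1.97 in control, where the double mutant was higher, and of -0.08 in HS. The call was kept in all 12 fits that left out a library, and was lost with the replicate number as a block (-2.05, adjusted p = 0.0185). Solyc03g007140, a B3 domain protein, a class of plant DNA-binding proteins, rose in the double mutant from 4.54, 5.66 and 5.29 CPM to 18.6, 18.7 and 13.6 CPM but went from 6.54, 7.71 and 6.29 CPM to 6.85, 5.61 and 3.36 CPM in WT. Here the difference of 2.09 (SE 0.307, adjusted p = 4.45e-03) lay in HS (1.68) more than in control (-0.41), and its call was kept in 3 of 12 such fits. Solyc04g077755, an iron-sulfur subunit of NADH dehydrogenase, was at 1.71, 2.45 and 2.12 CPM in control in the double mutant and at 0.151, 0.107 and 0.162 CPM in WT, with 5.65, 5.67 and 4.47 against 2.58, 1.85 and 2.12 CPM in HS (difference -2.59, SE 0.395, kept in 2 of 12 fits). A plant cysteine oxidase gene (Solyc07g055150), from the enzymes that sense low oxygen, rose from 8.13, 7.96 and 8.39 to 30.6, 31.5 and 27.4 CPM in the double mutant and from 10.3, 8.28 and 10.9 to 16.8, 13.6 and 12.7 CPM in WT (difference 1.32, SE 0.207). This call, like those of Solyc06g076520 and Solyc09g075950, was kept in 1 of 12 fits.

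**Figure D4:**
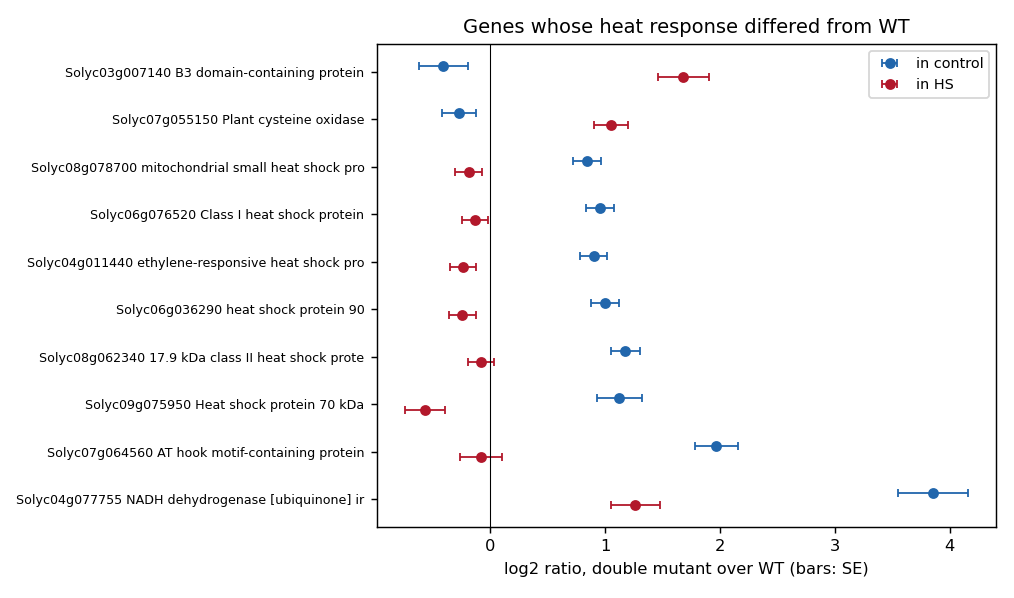
For the 10 genes whose heat response differed between rs2z35 36 and WT, the log2 difference of rs2z35 36 from WT in control and in HS (points, with the SE as bars). For the 6 heat shock protein genes the control points lie between 0.84 and 1.18 and the HS points between -0.56 and -0.08, whereas Solyc03g007140 and Solyc07g055150 depart from WT in HS.

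Against the single mutants no gene was called. For rs2z35 36 minus rs2z35, edgeR's quasi-likelihood test gave 0 of 24583 genes (0.0%), with a smallest adjusted p of 0.0240, 1744 genes at an unadjusted p below 0.05 and 13 called by DESeq2. For rs2z35 36 minus rs2z36 it gave 0 (0.0%), with a smallest adjusted p of 0.0191, 1205 genes at an unadjusted p below 0.05 and 4 called by DESeq2. Counts of called genes that were shared were 2298 higher and 2103 lower with rs2z35, 77.8% and 77.4% of those of the double mutant, and 2344 higher and 2106 lower with rs2z36, 79.4% and 77.5%. RS2Z36 rose by 1.39 in the double mutant, 1.24 in rs2z36 and 0.67 in rs2z35, and its difference from rs2z35 was 0.71 (adjusted p = 0.0809). The small HSPs, which differed from WT by a median of -1.09, differed from rs2z35 by 0.17 and from rs2z36 by 0.24. The value against WT has the limit of list choice given above. For Solyc07g064560 the differences from the single mutants were 0.03 and -0.31, with neither called, whereas the difference from WT was -2.05.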

How the data were processed

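RNA-seq was done by the study on polyadenylated RNA with non-directional, paired-end libraries in 3 biological replicates. The authors mapped reads to the SL4.0 tomato genome (ITAG4.0 annotation) with STAR, counted reads per gene with htseq-count (0.9.1) and adjusted the HS libraries with ComBat-Seq; the batch variable is not given in the sources used here. The deposited values are these read counts per gene, with 0 rows that name no gene. Groups follow the sample labels. From the counts, genes with a summed count of 10 or more were scaled by TMM and tested by quasi-likelihood in edgeR 4.0.16 (R 4.3.3), with p-values adjusted over all of them after Benjamini and Hochberg, on the 6 rs2z35 36 libraries for the heat response and on all 24 libraries for differences between genotypes. Calls needed a log2FC beyond 1 in either direction and an adjusted p below 0.01, thresholds that the study applied to shrunken values. SEs are the absolute log2FC over the root of the F statistic. The biological coefficient of variation was 0.123. CPM were scaled by TMM factors of all 24 libraries. Total counts were 16853134 to 20821643. The p-values weigh a difference between groups against the spread between replicates, which in HS is that of batch-adjusted counts.

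Named are HSFA2 and both RS2Z genes; the 5 largest rises and falls without overlap and with at least 10 CPM in the higher condition; the 5 most abundant risers and fallers; per list, up to 2 called risers and 2 fallers by level; up to 6 genes per interaction, by adjusted p; and the 3 highest genes at 0 counts in a condition. Other list members and the remaining 4 genes of the interaction were named after their values were seen. Lists were formed by words in gene descriptions, taken from a part of the study's annotated tables (2402 genes). The study titles these tables as lists of differentially expressed genes, between HS and control in WT and between mutants and WT. The values in them were not read, but having a description can depend on them. All 10 genes with a called difference from WT had a description. The members, lists and rules were chosen with earlier results of these data known. Alternatives were total counts as library size, size factors of DESeq2 1.42.0, that tool itself with apeglm 1.24.0 shrinkage or none, filterByExpr or no filter, a replicate block, all 24 or only 12 libraries, subtraction of an HS share from control counts, a level minimum for the reference sets, and leaving out each library. For the subtraction, every other induced gene went into a first list and the rest into another, and the share for each list was the median control-to-HS ratio of the 10 lowest genes of the other. Steps were tested on simulated counts. No genome was used, so coordinates and sequences are not given.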

Additional observations from a re-analysis of the deposited data

Results flagged for a closer look

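The heat response differed between rs2z35 36 and WT, by edgeR's test of the interaction, for 10 genes. The following 6 had the smallest adjusted p, and each log2FC difference is that of rs2z35 36 minus WT. Solyc06g036290 (HSP90) had -1.25, Solyc08g062340 (class II small HSP) -1.26 and Solyc04g011440 (HSC70) -1.14, each with a higher control level in the double mutant than in WT. Solyc07g064560 (AT hook protein) had -2.05: it was called higher in WT HS (log2FC 1.57) and not called in the double mutant (log2FC -0.47). Solyc03g007140 (B3 domain protein) had 2.09, with a log2FC of 1.72 in rs2z35 36 and -0.37 in WT. Solyc04g077755 (NADH dehydrogenase iron-sulfur protein) had -2.59, with a log2FC of 1.34 in rs2z35 36 and 3.92 in WT, at levels under 6 CPM. Among strongly induced genes, the lowest control levels, as a share of the HS level, were higher in rs2z35 36 than in WT. The first 3 belong to the induced genes, among which those with the lowest ratios set this share, and its part in them was not tested.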

How the results depend on the processing

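The heat response of rs2z35 36 kept between 5363 and 5845 called genes under DESeq2 with and without shrinkage, DESeq2's size factors, no filter, filterByExpr, the replicate block (5563), all 24 libraries and subtraction of the HS share. It changed with total counts as library size: 9107 called, 1588 higher and 7519 lower, with list medians of -0.0824 for glutathione transferases and -0.0593 for autophagy turning negative. Leaving out each library gave 5092 to 5739 called genes, 2716 to 2981 higher and 2376 to 2758 lower, and 145 to 154 called list members. Values of named genes, called or not, kept their direction and stayed on the same side of the thresholds in 1099 comparisons with an alternative, and a call was lost in 39, of which 14 were under total counts; 1 gained it. The difference from WT was called for 32 genes by DESeq2, 16 with total counts, 21 with only the 12 libraries of both genotypes, 4 after subtraction of the HS share and 0 with the replicate block in edgeR (1588 genes at an unadjusted p below 0.05), and for 1 to 7 without a library. Against rs2z35 it was 13 by DESeq2, 1 with total counts and 0 without any library; against rs2z36 it was 4 by DESeq2, 1 after subtraction and 0 to 1 without a library. The causes were not tested. Same-numbered control and HS libraries of rs2z35 36 did not deviate together over 11391 genes (r of -0.07, -0.0046 and 0.06), so the number was not taken as a pairing of control with HS. Same-numbered HS libraries of rs2z35 36 and each other genotype had r between -0.47 and -0.13 in all 9 pairs. For control libraries the same r lay between -0.49 and 0.65. What the number stands for across genotypes was not tested, and with it as a block no difference from WT was called. Reference set medians at 10 CPM or more were 2.072 and 2.0737 for the higher set in rs2z35 36 and WT and -1.7119 for the lower set in rs2z35 36. With 3 libraries per group and adjusted HS counts, small differences between genotypes were not resolved.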

Other observations

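Genes not placed on a chromosome, numbered Solyc00g, were mostly higher in HS in rs2z35 36. This group was formed after its values were seen, so no test is given. Of 117 such genes tested, 59 were called higher and 2 lower, with a median log2FC of 1.78, against 12.9% higher and 12.1% lower and a median of -0.04 for the genes placed on chromosomes. Of them, 33 have names of the mitochondrial or plastid type, such as subunits of NADH dehydrogenase, factors of cytochrome c biogenesis and ribosomal proteins; 29 were called higher and 1, a maturase K, lower (log2FC -1.90). Their median was 4.27 in rs2z35 36, 3.39 in WT, 3.59 in rs2z35 and 3.52 in rs2z36, and the difference was not tested. Levels were low, with the 33 genes summing to 31.4 to 39.2 CPM in control and 124 to 207 CPM in HS. The ribosomal protein S4 gene Solyc00g021640 was at 0.916, 1.09 and 0.529 CPM in control and at 24.1, 23.2 and 14.2 CPM in HS (log2FC 4.59), and Solyc00g019980, a chloroplast-type L2, had a log2FC of 4.84. The photosystem II protein D1 gene Solyc00g500329 was at 0.837, 0.603 and 0.529 CPM in control and at 3.51, 3.46 and 2.10 CPM in HS (log2FC 2.20, against -0.45 in WT). Its difference in heat response from WT was not called in the interaction. The libraries were made from polyadenylated RNA.

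Among HS libraries, deviations of log2 CPM from the group mean ran against each other between the same replicate numbers of rs2z35 36 and the other genotypes, with r between -0.47 and -0.13 in all 9 pairs. These counts had been batch-adjusted, and the part of that step in this pattern was not tested.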
